A study of Mus musculus with 32 samples.

Results

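The alpha and beta globin genes were followed in mouse bone marrow sorts, through 32 libraries sequenced for RNA. They are Hba-a1 and Hba-a2, which encode the adult alpha chain, Hbb-b1 and Hbb-b2, which encode the adult beta chain, and Hbb-bh1 and Hbb-y, the embryonic members of the beta cluster. The 6 genes were chosen by name, without use of their values, and are 6 of the 33924 genes in the count table. The 2 alpha genes were also summed, as were the 4 beta genes, because reads from near-identical copies can be assigned to either copy.

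Every library carries the genotype label Jak2v617f. Per the labels, the activated kinase allele Jak2V617F, the driver of most myeloproliferative neoplasms, was switched on ex vivo with mRNA for the recombinase Dre, and the cells were then transplanted into lethally irradiated recipients. Recipient mice received vehicle (day 0), tamoxifen (TAM), which activates the recombinase Cre and deletes Jak2V617F, for 3 or 7 days, or the JAK inhibitor ruxolitinib for 7 days. LSK cells (lineage negative, Sca1+, Kit+), the compartment of stem cells and the earliest progenitors, were sorted, as were megakaryocyte-erythroid progenitors (MEP). In batch A there were 4 vehicle, 3 TAM day 3 and 4 TAM day 7 libraries of LSK cells, and 3, 4 and 3 of MEP cells. In batch C there were 2 vehicle and 3 ruxolitinib libraries of LSK cells, and 3 and 3 of MEP cells. The descriptions are codes with numbers, which were read here as mouse numbers within a treatment and day. The same vehicle numbers occur in both batches and were taken as the same mice. These are 12 and 18 for LSK cells, and 12, 32 and 33 for MEP cells. The labels do not give doses, ages, the promoter that drives Cre, or whether cells of the recipient were gated out. No group given tamoxifen without a deletable allele is described, and all vehicle libraries are from day 0, so the drug, the deletion and the passing of time cannot be told apart. The labels do not say how mice shared litters or sorting days, so p-values measure only the spread between these libraries.

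Haemoglobin is a tetramer of a pair of alpha chains and a pair of beta chains, each holding a heme, and red cell precursors make it in their last divisions. The alpha genes and the beta genes lie in clusters on different chromosomes. In each cluster the embryonic members are used in the yolk sac and silenced later, and the adult members are switched on through distant enhancers bound by GATA1, KLF1, TAL1 and NF-E2. Megakaryocyte-erythroid progenitors sit before this rise, and stem cells are further from it.

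The coding sequences show why adult copies were summed. Hba-a1 (chr11:32283511-32284465, plus strand, mm10, GENCODE M21) and Hba-a2 (chr11:32296489-32297298, plus strand) are protein-coding genes of 3 exons, and their coding sequences of 426 bases without the stop differ at 1 base, C381T, counted from 1 at the start of the coding sequence. The stretch from base 361 to base 400 holds that base, in capitals.

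Hba-a1: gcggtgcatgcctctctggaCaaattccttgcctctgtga

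Hba-a2: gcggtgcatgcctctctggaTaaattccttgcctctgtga

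Of all runs of 50 bases in the Hba-a1 transcript, 67.5% were also found in the Hba-a2 transcript, and 86.9% the other way. At the adult beta locus the same annotation lists Hbb-bs (chr7:103826534-103828096, minus strand) and Hbb-bt (chr7:103812524-103813996, minus strand), the symbols of the beta cluster's single haplotype, where the count table lists Hbb-b1 and Hbb-b2. No position is therefore given here for Hbb-b1 and Hbb-b2. The coding sequences of Hbb-bs and Hbb-bt, 441 bases each without the stop, also differ at 1 base, C417T, shown in capitals in the stretch from base 397 to base 436.

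Hbb-bs: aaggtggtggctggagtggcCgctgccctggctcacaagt

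Hbb-bt: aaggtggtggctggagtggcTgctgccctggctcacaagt

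The embryonic genes are easier to tell from the rest. Hbb-bh1 (chr7:103841637-103843164, minus strand) and Hbb-y (chr7:103851749-103853216, minus strand) are 73.7% to 76.4% identical to the other beta genes and to each other in coding sequence, and no run of 50 bases was shared. The promoters of the alpha genes are as close as their coding sequences. The 247 bases before the Hba-a2 start (chr11:32296242-32296488, plus strand, RefSeq, GRCm38.p6) were found whole in the 250 bases before the RefSeq start of Hba-a1 (chr11:32283422-32283671). The GENCODE start of Hba-a1 given above lies inside that window. The Hba-a2 bases are shown because the alpha genes were read together throughout, with the motifs that were searched for in capitals.

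Hba-a2 promoter: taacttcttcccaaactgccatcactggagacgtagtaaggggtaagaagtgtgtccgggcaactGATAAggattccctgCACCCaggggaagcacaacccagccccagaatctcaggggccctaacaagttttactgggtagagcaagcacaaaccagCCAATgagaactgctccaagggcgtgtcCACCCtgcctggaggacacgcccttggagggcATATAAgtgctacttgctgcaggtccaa

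On the plus strand, GATAA, a core of GATA factor motifs, lies 182 bases before the annotated start, CACCC, a core of KLF motifs, 167 and 60 bases before it, CCAAT 88 bases before it and the box ATATAA 28 bases before it. ATAAA was searched for as well, on both strands like the others, and was not found. Of 32851 RefSeq promoters over the same window of 250 bases before the start, 52% held CACCC, 33.9% CCAAT, 22.6% GATAA, 37.3% ATAAA and 9.1% ATATAA on either strand, so these matches describe the window and name no bound factor.

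Total counts per library ran from 11160696 to 55473241, and the globin genes took 0.00226% to 0.206% of them. Libraries of a group differed by more than sampling noise (chi-square per degree of freedom 13.7 to 164). Levels below are read counts scaled to library size with TMM factors (CPM), not divided by gene length, so they compare libraries and not genes. Jak2 itself, at 12.4 to 29.1 CPM in LSK and 13 to 41.7 CPM in MEP libraries, is counted over both alleles and does not check the labels. Ly6a, which encodes Sca1, was at 10.9 to 181 CPM in LSK and at 0 to 1.37 CPM in MEP libraries, and Gata1 was at 364 to 1479 CPM in MEP libraries, which matches the labelled sorts.

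Before any comparison, 3 vehicle libraries stood apart in the globin genes. The LSK library of mouse 14 in batch A had an alpha sum of 620 CPM, 20.1 times the next highest LSK vehicle library of that batch, and a beta sum of 824 CPM, 22.8 times the next. The MEP libraries of mouse 32 had alpha sums of 405 CPM in batch A and 650 CPM in batch C, 8.06 and 8 times the next highest of their groups, and beta sums 4.98 and 4.15 times the next. These libraries also stood high in Slc4a1, which encodes the red cell anion exchanger band 3. It was at 67.4 CPM in mouse 14 against 6.51 to 29.8 CPM in the other LSK vehicle libraries of batch A, and at 237 and 219 CPM in mouse 32 against 4.4 to 13 CPM in the other MEP vehicle libraries. Alas2, the erythroid enzyme that starts heme synthesis, was at 28.4 CPM in mouse 14 and at 37.7 and 37.6 CPM in mouse 32. The 14 macrophage markers summed to 4304 CPM in mouse 14 against 223 to 233 CPM in the other LSK vehicle libraries of the batch, while the 23 late red cell genes summed to 2428 CPM there, within the 1716 to 3189 CPM of the others. In mouse 32 the late red cell genes summed to 17104 CPM in batch A, between the 11132 and 17531 CPM of the other MEP vehicle libraries. In batch C they summed to 22908 CPM, between 21063 and 23529 CPM. Car2 had a mean of 10252 CPM over MEP libraries against 33.4 CPM for Slc4a1. These MEP sums therefore mostly follow Car2 and do not show the lower genes of the list. The part of red cell precursors, macrophages or carried-over RNA in these globin values was not tested. For each treatment comparison with such a library, the globin sums and the globin genes called in edgeR are therefore given with and without it. Ratios and genes of the lists below are given without it only where stated.

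**Figure D1:**
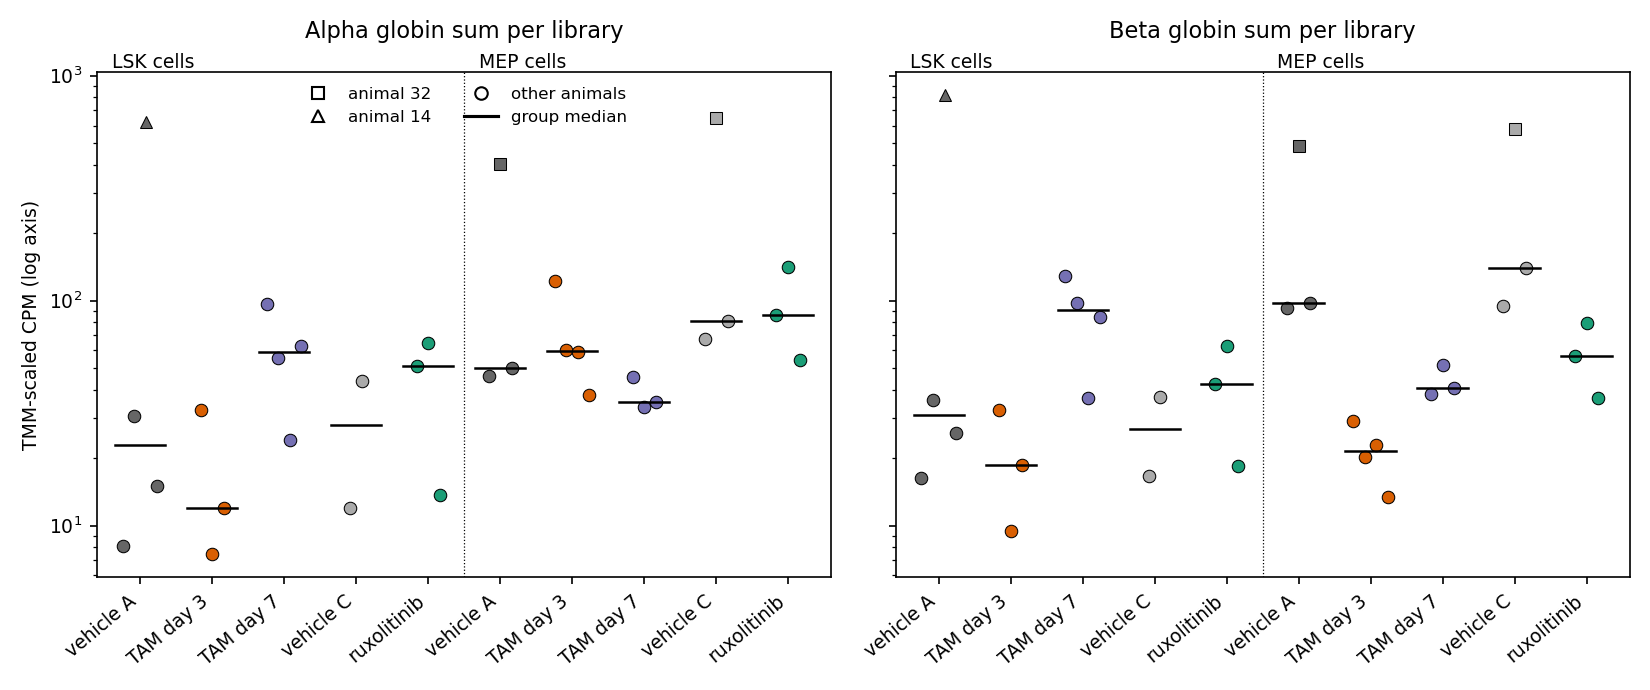
Summed alpha (Hba-a1 and Hba-a2) and beta (4 genes) globin CPM on a log axis, with a point per library in each of the 10 groups and a line at the group median. The triangle is mouse 14 and the squares are mouse 32; these 3 vehicle libraries lie above every other library in both sums.

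The order of the groups by median alpha sum ran from LSK TAM day 3 at 12 CPM, through LSK vehicle A at 22.9, LSK vehicle C at 27.9, MEP TAM day 7 at 35.2, MEP vehicle A at 50.3, LSK ruxolitinib at 51.3, LSK TAM day 7 at 58.9, MEP TAM day 3 at 59.9 and MEP vehicle C at 81.3, to MEP ruxolitinib at 86.2 CPM. Neighbours in this order overlapped in range, except that all MEP TAM day 7 libraries lay below all MEP vehicle A libraries. The order by median beta sum was different, with MEP TAM day 3 second from the bottom. It ran from LSK TAM day 3 at 18.6 CPM, through MEP TAM day 3 at 21.5, LSK vehicle C at 26.9, LSK vehicle A at 30.9, MEP TAM day 7 at 40.8, LSK ruxolitinib at 42.7, MEP ruxolitinib at 56.6, LSK TAM day 7 at 91.2 and MEP vehicle A at 97.2, to MEP vehicle C at 140 CPM, and all neighbours overlapped. The labels do not say whether the batch A and batch C libraries of a vehicle mouse are separate sorts or the same RNA sequenced again. The fits of 16 libraries treat them as separate libraries, and a fit of the compared groups alone holds each vehicle mouse once. Over the 5 mouse and cell type pairs, batch C over batch A was 0.51 to 0.69 on the log2 scale for the alpha sum and 0.02 to 0.52 for the beta sum.

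The first question was how globin RNA in MEP cells after 3 days of tamoxifen compared with vehicle. Beta globin RNA was lower in every treated library, and alpha globin RNA overlapped with vehicle. The beta sum was 93, 485 and 97.2 CPM in the vehicle libraries of mice 12, 32 and 33, and 29.3, 20.2, 22.7 and 13.5 CPM in the TAM day 3 libraries. All 4 treated libraries lay below all vehicle libraries. On the log2 scale, used for all changes here, the beta sum fell by 3.41 (SE 0.54, edgeR adjusted p = 0.000988), and by 2.15 (SE 0.44, edgeR adjusted p = 0.0161) without mouse 32. With edgeR's robust estimate of the spread, the adjusted p of the beta sum was 0.0636.

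The fall was in both adult beta genes. Hbb-b2 was at 39.3, 211 and 46.7 CPM under vehicle and at 11.4, 5.84, 6.06 and 2.96 CPM at day 3. It fell by 3.95 (SE 0.56, edgeR adjusted p = 0.00025), and by 2.73 without mouse 32 (edgeR adjusted p = 0.00306). No day 3 library reached the lowest vehicle library. Hbb-b1 was at 53.1, 273 and 49.6 CPM under vehicle and at 16.5, 13.8, 15.5 and 8.97 CPM at day 3, again without overlap. It fell by 3.21 (SE 0.56, edgeR adjusted p = 0.00287). Without mouse 32 its change was -1.90 with an adjusted p of 0.0528 in edgeR, and with the robust estimate the adjusted p was 0.103. Of the 5 globin genes tested, 2 fell and none rose, where 1.21% of all genes were called in either direction and 0.324% were called lower. The median change of the 5 was -1.31, against 0 over all genes. Of the 6 genes, 2 were lower without overlap, as were 2.96% of all genes.

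Alpha globin RNA overlapped with vehicle, with 1 of the 4 treated libraries below all vehicle libraries in Hba-a1, in Hba-a2 and in their sum. With scaling by total counts alone, no treated library lay below all vehicle libraries in any of them. Hba-a1 was at 44.8, 392 and 46.9 CPM under vehicle and at 115, 57.9, 55.8 and 36.8 CPM at day 3, so that 3 of the 4 treated libraries lay above the vehicle libraries of mice 12 and 33 and all lay below mouse 32. Hba-a2 was at 1.34, 13.8 and 3.42 CPM under vehicle and at 6.65, 2.65, 3.31 and 1.16 CPM at day 3. The alpha sum changed by -1.29 (SE 0.65, edgeR adjusted p = 0.792), and by 0.52 (SE 0.60, edgeR adjusted p = 1) without mouse 32. The direction of the alpha value thus rested on mouse 32, and its interval does not show that alpha RNA was unchanged.

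After 7 days of tamoxifen both chains had low values in MEP cells. The beta sum was 38.3, 51.9 and 40.8 CPM, all below the vehicle libraries. It fell by 2.34 (SE 0.58, edgeR adjusted p = 0.00938). Without mouse 32 the value was -1.09 with an adjusted p of 0.251, with the robust estimate the adjusted p was 0.11, and with scaling by total counts alone the value was -1.80 with an adjusted p of 0.0719, so the call rested on those choices. Hbb-b2, at 8.08, 12.4 and 10.7 CPM against 39.3 CPM or more under vehicle, fell by 3.23 (SE 0.61, edgeR adjusted p = 0.000679), and by 2.02 without mouse 32 (edgeR adjusted p = 0.013). Hbb-b1, at 28.7, 39.1 and 28.6 CPM, was also below all vehicle libraries. It fell by 1.94 (SE 0.60, edgeR adjusted p = 0.0416), and its change was -0.64 with an adjusted p of 0.626 without mouse 32. The call on Hbb-b1 was also lost with each day 7 library left out (edgeR adjusted p of 0.0754 to 0.132), with RLE scaling (0.0647), with total counts alone (0.167), with the robust estimate (0.227) and in DESeq2 (0.0713).

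Hba-a1 was at 42.7, 30.1 and 29.7 CPM at day 7, just under the lowest vehicle value of 44.8 CPM. The alpha sum, at 45.7, 33.6 and 35.2 CPM, changed by -2.11 (SE 0.73, edgeR adjusted p = 0.0823), and by -0.29 (edgeR adjusted p = 0.862) without mouse 32. It passed the test without mouse 12 (adjusted p = 0.0304) or mouse 33 (adjusted p = 0.0361), where mouse 32 weighs more. Hba-a2 was at 3, 3.5 and 5.55 CPM and overlapped with vehicle. Of the 5 globin genes tested, 2 were called lower, where 8.42% of all genes were called and 7.03% were called lower. Their median change was -1.94, against 0.21 over all genes. Of the 6 genes, 3 were lower without overlap, where 15.8% of all genes were. With scaling by total counts alone, which moves the median of all genes to 0.73 and the share of calls that are higher from 16.4% to 57.1%, only Hbb-b2 kept that separation.

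**Figure D2:**
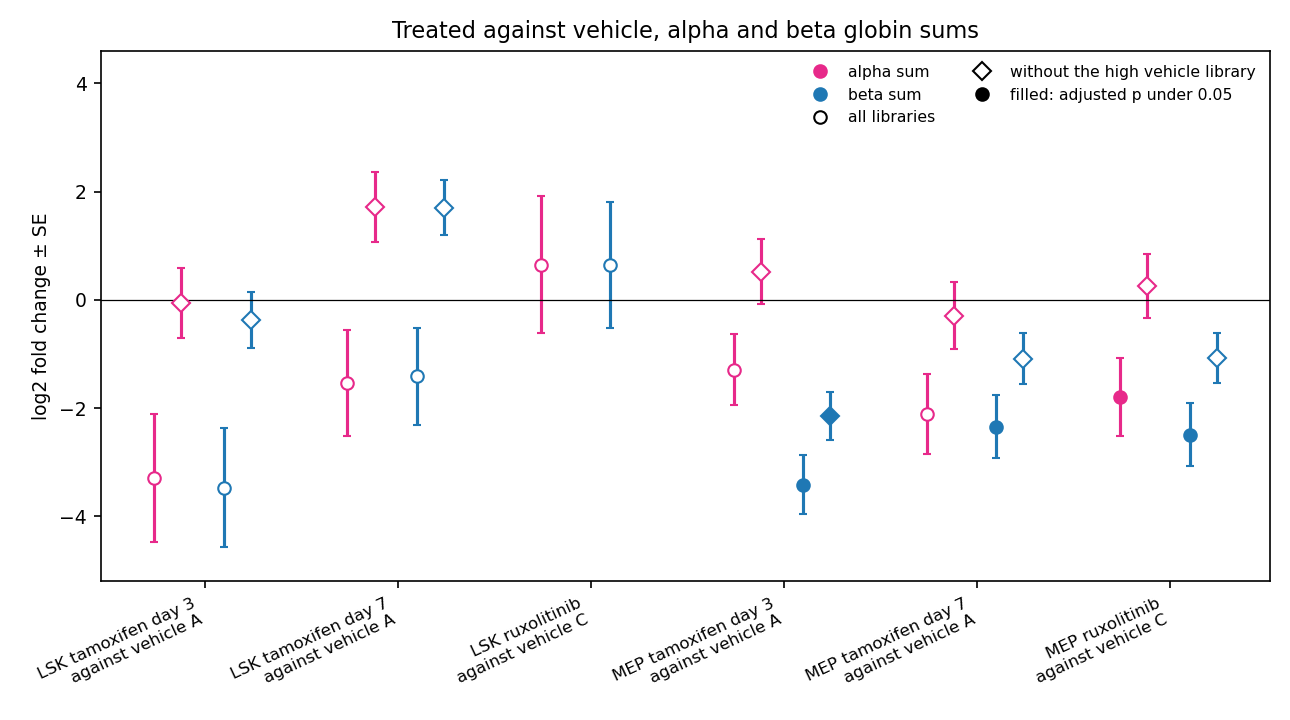
Log2 fold change against vehicle of the same batch, with its standard error, for the alpha and beta globin sums in the 6 treatment comparisons. Circles use all libraries, diamonds leave out the vehicle library that stands apart, and filled symbols have an adjusted p under 0.05 in edgeR. The only filled diamond is the beta sum at day 3 in MEP cells.

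Ruxolitinib, which inhibits the kinase in place of deleting its mutant allele, was compared with vehicle of batch C. In MEP cells the beta sum was 94.4, 581 and 140 CPM under vehicle and 56.6, 79.8 and 36.8 CPM under ruxolitinib. All treated libraries lay below all vehicle libraries. The beta sum fell by 2.49 (SE 0.58, edgeR adjusted p = 0.00199). Without mouse 32 it was -1.08 (SE 0.46, edgeR adjusted p = 0.0846). Hbb-b1, at 50.8, 366 and 87.4 CPM under vehicle and 31.8, 45.6 and 16.5 CPM under ruxolitinib, fell by 2.69 (SE 0.61, edgeR adjusted p = 0.00167), with -1.19 and an adjusted p of 0.0689 without mouse 32. Hbb-b2, at 43.4, 214 and 52.1 CPM and then 24.3, 34.2 and 20.2 CPM, fell by 2.23 (SE 0.58, edgeR adjusted p = 0.00428), with -0.93 and an adjusted p of 0.159 without mouse 32.

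Alpha globin RNA under ruxolitinib overlapped with vehicle, with 1 of the 3 treated libraries below all vehicle libraries. Hba-a1 was at 64.2, 624 and 78.1 CPM under vehicle and at 80.6, 131 and 50.9 CPM under ruxolitinib. With these TMM-scaled values, 2 treated libraries lay above mice 12 and 33. With scaling by total counts alone, Hba-a1 was at 33.1 to 58.8 CPM under ruxolitinib and at 42.2 to 483 CPM under vehicle. How many treated libraries lay above or below vehicle libraries thus depended on the scaling, while Hba-a1 overlapped either way. With all libraries it fell by 1.84 (SE 0.73, edgeR adjusted p = 0.0452), and without mouse 32 the value was 0.22 (adjusted p = 0.81). The alpha sum, at 67.8, 650 and 81.3 CPM and then 86.2, 141 and 54.3 CPM, fell by 1.80 (SE 0.72, edgeR adjusted p = 0.0486) and had a value of 0.26 (adjusted p = 0.778) without mouse 32. Its call was also lost with each ruxolitinib library left out (adjusted p of 0.0641 to 0.168), with RLE scaling (0.0825), with a fit of the compared groups alone (0.124) and with the robust estimate (0.184). Of the 5 globin genes tested, 3 were called lower, but 42% of all genes were called in this comparison and 38.5% were called lower, with a median of -1.07 over all genes against -1.84 over the globin genes. Of the 6 genes, 2 were lower without overlap, as were 34.4% of all genes. These background values depended on the fit. With the compared groups alone, 3090 genes were called in place of 10605, the median over all genes was -0.25, and 2 globin genes, Hbb-b1 and Hbb-b2, were called lower. With the replicate block the median was -0.22. The counts of globin genes called or separated under ruxolitinib are therefore no more than a description of this comparison.

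In LSK cells 0 of the 5 globin genes tested were called in any of the 3 treatment comparisons. At TAM day 3, edgeR called 0% of 26930 genes, with 1019 genes and 4 of the globin genes at an unadjusted p under 0.05, and DESeq2 called 93 genes, among them Hbb-b2 (-2.96, adjusted p = 0.0287). At day 7 edgeR called 0.104% and under ruxolitinib 0.0223% of all genes, with 2405 and 2402 genes but 0 globin genes at an unadjusted p under 0.05, and DESeq2 called 334 and 132 genes. All 6 globin genes overlapped between treated and vehicle libraries in each comparison, where 3.9%, 3.39% and 20.8% of all genes did not overlap at day 3, at day 7 and under ruxolitinib.

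The alpha sum of LSK cells was 8.14, 30.8, 620 and 14.9 CPM in vehicle mice 12, 18, 14 and 8, and 32.5, 7.44 and 12 CPM at TAM day 3. Of the day 3 values, 1 lay above, 1 below and 1 within the range of the 3 lower vehicle mice. Its change was -3.29 (SE 1.18, edgeR adjusted p = 0.878), and -0.06 (SE 0.65, edgeR adjusted p = 1) without mouse 14. The beta sum was 16.2, 36.1, 824 and 25.7 CPM under vehicle and 32.7, 9.42 and 18.6 CPM at day 3. Its change was -3.47 (SE 1.09, edgeR adjusted p = 0.668), and -0.37 (SE 0.52, edgeR adjusted p = 1) without mouse 14. Macrophage markers summed to 1788 to 10097 CPM in these day 3 libraries, and their part in the globin values was not tested.

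At day 7 the LSK libraries had the highest median of the LSK groups in both sums. The alpha sum was 96.1, 55.3, 24 and 62.6 CPM, so that 3 of 4 libraries lay above vehicle mice 12, 18 and 8. Its change was -1.54 (SE 0.98, edgeR adjusted p = 0.824), and 1.71 (SE 0.64, edgeR adjusted p = 0.393) without mouse 14. The beta sum was 128, 97.5, 36.9 and 84.9 CPM, all above vehicle mice 12, 18 and 8, the lowest by a narrow margin. Its change was -1.41 (SE 0.90, edgeR adjusted p = 0.824), and 1.70 (SE 0.51, edgeR adjusted p = 0.288) without mouse 14. Hba-a2, at 12.9, 11.2, 3.4 and 7.88 CPM against 0.279, 0.659, 137 and 0.247 CPM under vehicle, had a value of 4.42 (SE 0.81, edgeR adjusted p = 0.0504) without mouse 14. The direction of all these values turned with 1 mouse, and none passed the test either way. Granulocyte markers, 12 genes, summed to 6463 to 12893 CPM in the day 7 libraries against 991 to 3735 CPM under vehicle. Most of that sum was Mpo, with a mean of 3432 CPM over LSK libraries, then Elane, Prtn3 and Ctsg. The next member, S100a8, had a mean of 12.4 CPM. The part of cells with these genes was not tested.

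Under ruxolitinib the LSK alpha sum was 51.3, 64.6 and 13.7 CPM against 12 and 43.8 CPM in the 2 vehicle libraries. The value was 0.65 (SE 1.26, edgeR adjusted p = 0.866). The beta sum was 42.7, 63.1 and 18.4 CPM against 16.5 and 37.2 CPM, a value of 0.64 (SE 1.16, edgeR adjusted p = 0.856). Treated and vehicle libraries overlapped in both sums, and 2 vehicle libraries leave these intervals wide.

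The time points and treatments were next set against each other. Day 3 and day 7 share their vehicle libraries, so they were compared directly. In MEP cells the beta sum was higher at day 7 than at day 3 in every library, by 1.07 (SE 0.52, edgeR adjusted p = 0.295), and the alpha sum differed by -0.81 (SE 0.67, edgeR adjusted p = 0.57). Of all genes, 7.47% were called in this comparison and 0 of the 5 globin genes were, with 1 of them at an unadjusted p under 0.05. In a fit of these groups alone, both sums passed the test, with adjusted p of 0.00137 for beta and 0.0489 for alpha. In LSK cells the day 7 minus day 3 values were 1.75 (SE 1.09, edgeR adjusted p = 0.831) for alpha and 2.05 (SE 1.02, edgeR adjusted p = 0.669) for beta, where 0.00743% of all genes were called.

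The day 7 effect minus the ruxolitinib effect in MEP cells was -0.31 for the alpha sum (edgeR adjusted p = 0.812) and 0.15 for the beta sum (edgeR adjusted p = 0.885). Of all genes, 46% were called in it and 0 globin genes were, with 0 at an unadjusted p under 0.05. The alpha value was -2.37 (edgeR adjusted p = 0.0305) without the batch C library of mouse 32 and 1.4 without its batch A library, so it followed whichever of these libraries was kept. In LSK cells the same differences were -2.19 and -2.05 (edgeR adjusted p of 0.785 and 0.781), where 0.00371% of all genes were called.

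Whether MEP cells carry more globin RNA than LSK cells was asked under vehicle, and the answer depended on the libraries named above. In batch A the beta sum of MEP minus LSK vehicle cells was 0 (edgeR adjusted p = 0.999), and 3.11 (SE 0.64, edgeR adjusted p = 0.000611) without mouse 14. The alpha sum was -0.01 (edgeR adjusted p = 0.998), and 3.22 (SE 0.83, edgeR adjusted p = 0.00586) without mouse 14. Both values without mouse 14 kept mouse 32, which stands apart among the MEP vehicle libraries, and a fit without both mice was not run. With each library left out in turn, the values ran from -1.80 to 3.22 for alpha and from -1.25 to 3.11 for beta. In batch C the beta sum was higher in MEP cells by 3.34 (SE 1.14, edgeR adjusted p = 0.0405), with 2.12 and an adjusted p of 0.211 without mouse 32. That call was also lost without either LSK vehicle library (0.279 and 0.121), with total counts alone (0.0826) and with the robust estimate (0.105). The alpha sum differed by 3.25 (SE 1.30, edgeR adjusted p = 0.0897). Hbb-b1 and Hbb-b2 were called higher in batch C (3.62 and 3.01, edgeR adjusted p of 0.0483 and 0.0244), 2 of 5 globin genes where 16.6% of all genes were called and 8.09% were called higher. In batch A none was, where 17.4% of all genes were called.

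Mice sorted for both cell types showed no single order of the 2. Vehicle mouse 12 had alpha sums of 8.14 CPM in LSK and 46.2 CPM in MEP cells of batch A, and beta sums of 16.2 and 93 CPM. At TAM day 3, 1 of 2 mice had more alpha RNA in MEP cells (60.6 against 32.5 CPM) and more beta RNA in LSK cells (32.7 against 20.2 CPM), and the other had more of both in MEP cells. At TAM day 7 all 3 mice sorted for both cell types had more globin RNA in LSK than in MEP cells. Their alpha sums were 96.1 against 45.7, 55.3 against 33.6 and 62.6 against 35.2 CPM, and their beta sums 128 against 38.3, 97.5 against 51.9 and 84.9 against 40.8 CPM. Under ruxolitinib all 3 mice had more in MEP cells in both sums when scaled with TMM factors. With scaling by total counts alone, the beta sum there ran from 17 to 50.7 CPM in LSK and from 23.9 to 35.8 CPM in MEP libraries. The order of the 2 cell types in the beta sum under ruxolitinib thus depended on the scaling. The treatment effect in MEP minus that in LSK cells was not called for either sum. For the beta sum it was 0.08 at day 3, -0.99 at day 7 and -2.86 under ruxolitinib (edgeR adjusted p of 1, 0.83 and 0.324), and for the alpha sum 2.02, -0.63 and -2.14 (1, 0.907 and 0.534), where 0.0529%, 0.458% and 0.292% of all genes were called. The day 7 beta value was -4.11 (edgeR adjusted p = 0.0191) without mouse 14. That fit kept mouse 32, which stands apart among the MEP vehicle libraries, and a fit without both mice was not run. With each library left out in turn, the day 7 beta value ran from -4.11 to 0.25. In bulk libraries such as these, fewer cells of a type and less RNA per cell cannot be told apart.

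The ratio of alpha to beta counts within a library does not depend on scaling. It was computed from counts not divided by length, so it is read between libraries only. In MEP cells it was 0.497, 0.837 and 0.518 under vehicle in batch A and 4.17, 2.99, 2.6 and 2.82 at TAM day 3. Every day 3 library was above every other library of the series in this ratio. The geometric mean was 3.09 at day 3 against 0.599 under vehicle, a log2 difference of 2.37 (exact permutation p = 0.0571, the smallest that 4 against 3 libraries allow, and 0.3 adjusted over the 6 treatment comparisons). The difference was 2.61 without mouse 32. At day 7 the ratio was 1.19, 0.648 and 0.864, which overlapped with vehicle (log2 difference 0.54, exact permutation p = 0.2).

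The MEP ratio was also higher under ruxolitinib than under vehicle. It was 0.718, 1.12 and 0.581 under vehicle in batch C and 1.52, 1.77 and 1.48 under ruxolitinib. All treated libraries lay above all vehicle libraries, mouse 32 included. The geometric mean was 1.58 against 0.776, a log2 difference of 1.03 (exact permutation p = 0.1, the smallest that 3 against 3 libraries allow, and 0.3 adjusted), and 1.29 without mouse 32.

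In LSK cells the ratio stayed between 0.503 and 1.2 in all groups. It was 0.503, 0.852, 0.752 and 0.581 under vehicle in batch A, 0.994, 0.789 and 0.644 at day 3 and 0.749, 0.567, 0.65 and 0.737 at day 7. In batch C it was 0.725 and 1.18 under vehicle and 1.2, 1.02 and 0.747 under ruxolitinib. Mouse 14, whose sums stood far above the other mice, had a ratio in the middle of its group. The log2 differences were 0.28, 0.03 and 0.07 (exact permutation p of 0.343, 1 and 0.8). Between batches, the 5 pairs of vehicle libraries of a mouse differed by 0.17 to 0.53 in the log2 ratio, always higher in batch C.

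**Figure D3:**
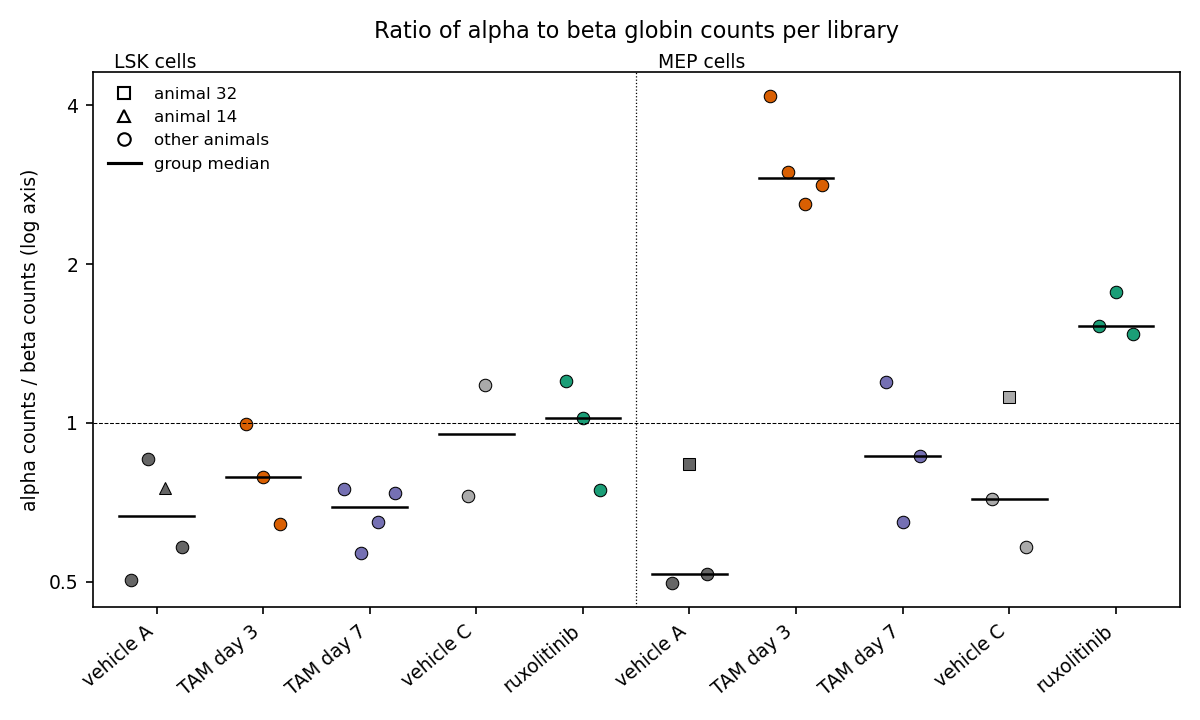
Ratio of summed alpha to summed beta globin counts in each library, on a log axis, by group, with a line at the group median. The 4 MEP TAM day 3 libraries lie between 2.6 and 4.17 and the 3 MEP ruxolitinib libraries between 1.48 and 1.77, all above the vehicle libraries of their batch, and the LSK groups overlap.

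The share of each adult copy was examined next, with the limit that how reads with several alignments were counted is not stated in the labels or processing notes. Hba-a2 took the smaller part of alpha counts everywhere. In LSK vehicle libraries of batch A it was 3.43%, 2.14% and 1.66% in mice 12, 18 and 8 and 22.1% in mouse 14. At TAM day 3 it was 9.37%, 13.8% and 13.5%, at day 7 it was 13.4%, 20.2%, 14.2% and 12.6%, and under ruxolitinib it was 15.5%, 12.8% and 10.1% against 5% and 6.76% in vehicle of batch C. Apart from mouse 14, all treated LSK libraries lay above all vehicle libraries. The log2 ratio of Hba-a2 to Hba-a1 differed by 1.64 at day 3, 2 at day 7 and 1.23 under ruxolitinib (exact permutation p of 0.229, 0.143 and 0.2, each 0.274 adjusted), and by 2.54 and 2.89 at days 3 and 7 without mouse 14 (exact permutation p of 0.1 and 0.0571). The smallest p that 3 against 2 libraries allow is 0.2.

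In MEP cells the Hba-a2 share was 2.91%, 3.41% and 6.8% under vehicle in batch A, 5.46%, 4.37%, 5.59% and 3.06% at day 3 and 6.56%, 10.4% and 15.8% at day 7, and these overlapped. In batch C it was 5.22%, 4.09% and 3.9% under vehicle and 6.46%, 7.12% and 6.19% under ruxolitinib, without overlap (log2 difference 0.62, exact permutation p = 0.1, 0.274 adjusted). The 2 libraries of vehicle mouse 18 gave 2.14% and 6.76% in LSK cells, so that batches of the same mouse differed as well.

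The Hbb-b2 share was lower after tamoxifen in MEP cells. It was 42.5%, 43.5% and 48.5% under vehicle, 40.9%, 29.7%, 28.2% and 24.8% at day 3 and 22%, 24.1% and 27.1% at day 7. All treated libraries lay below all vehicle libraries, mouse 32 included. The log2 ratio of Hbb-b2 to Hbb-b1 differed by -0.88 at day 3 and -1.34 at day 7 (exact permutation p of 0.0571 and 0.1, the smallest these designs allow, and 0.286 adjusted). Under ruxolitinib the share was 43.3%, 42.8% and 55% against 46.1%, 37% and 37.4% under vehicle, which overlapped (0.41, exact permutation p = 0.3).

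In LSK cells the Hbb-b2 share was 42.1%, 42.9% and 51.6% in vehicle mice 12, 18 and 8 and 16.4% in mouse 14, so that mouse 14 stood apart in the use of both pairs of copies. At day 7 it was 20.2%, 25.2%, 23.8% and 19.4%, below the other vehicle mice and above mouse 14 (log2 difference -1.04, exact permutation p = 0.143, and -1.56 with p = 0.0571 without mouse 14). At day 3 it was 16.9%, 32% and 43.2%, and under ruxolitinib 45.1%, 36.5% and 53.1% against 44.5% and 50% under vehicle, which overlapped. Day 7 libraries of LSK and MEP cells and the LSK library of mouse 14 thus had Hbb-b2 shares of 16.4% to 27.1%.

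**Figure D4:**
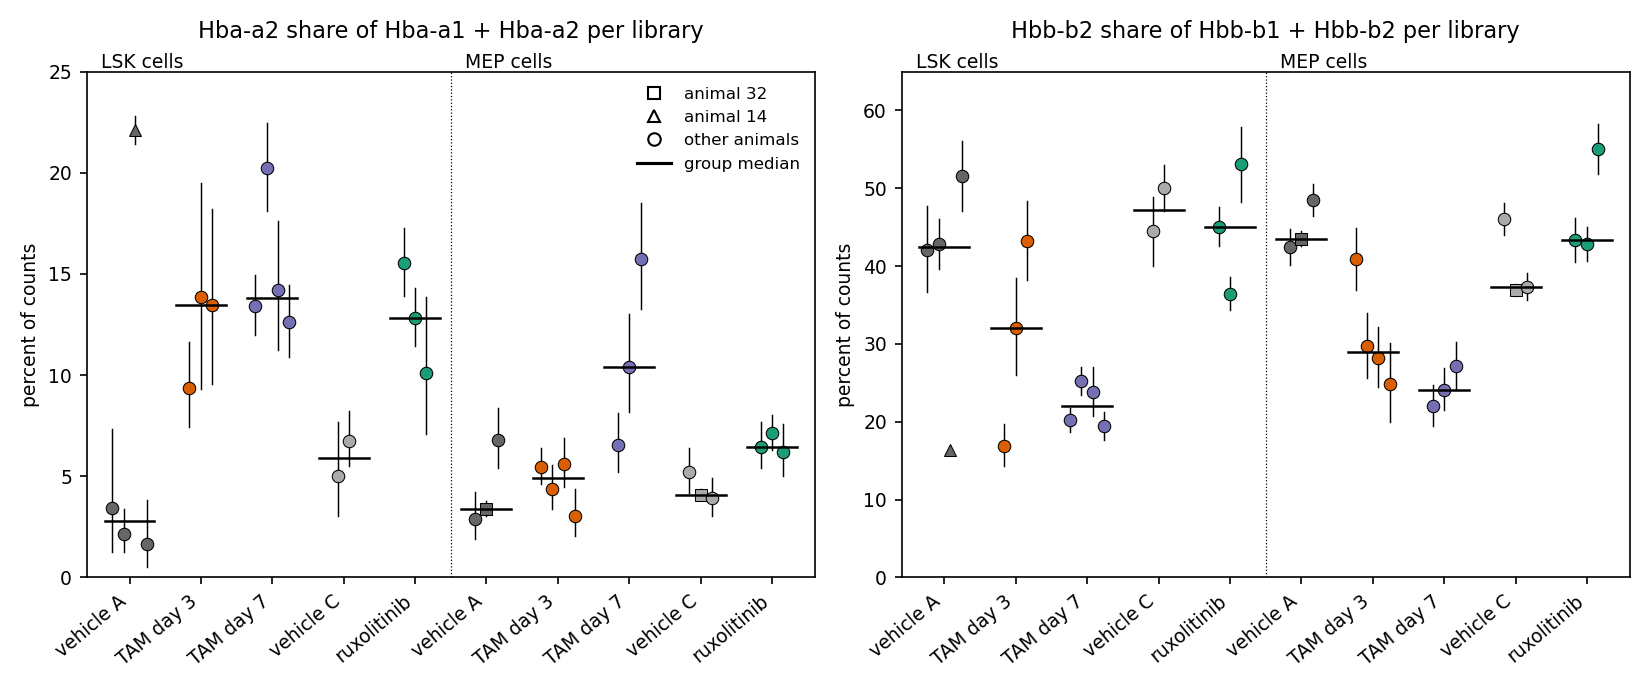
Share of Hba-a2 in the counts of Hba-a1 and Hba-a2, and of Hbb-b2 in the counts of Hbb-b1 and Hbb-b2, in percent for each library with its 95% exact binomial interval, which covers counting error only. The Hbb-b2 share is at 22% to 27.1% in the MEP TAM day 7 libraries against 42.5% to 48.5% under vehicle, and mouse 14 (triangle) lies at 16.4% among LSK vehicle libraries at 42.1% to 51.6%.

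The embryonic genes were near the limit of detection. Hbb-bh1 had 0 to 6 counts per library and was at 0 in 12 of the 32 libraries, among them all 4 LSK TAM day 7 libraries, and it was too low to be tested. A count of 0 allows up to 0.083 to 0.154 CPM at these depths (3 counts of the total, counting error only). Hbb-y had 0 to 41 counts, with 0 in 3 of the libraries, and stood at 0 to 1.56 CPM. In MEP cells it was at 0.516 to 1.15 CPM under vehicle, 0.538 to 1.3 CPM at day 3 and 0.154 to 1.56 CPM at day 7 in batch A, and at 0.14 to 0.579 CPM under vehicle and 0 to 0.368 CPM under ruxolitinib in batch C. Groups overlapped, and edgeR called it in 0 of the 6 treatment comparisons. It was called lower in MEP cells under ruxolitinib (edgeR adjusted p = 0.00714) with the first ruxolitinib library left out, where the others were at 0. As adult beta RNA was low at MEP day 3, embryonic counts made up 2.86% to 11.3% of beta counts there, against 0.237% to 1.01% under vehicle. The level of Hbb-y itself changed by 0.28 on the log2 scale in that comparison and was not called.

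The table also lists 8 further globin-type genes, such as the embryonic alpha-type Hba-x and the oxygen binding proteins Mb, Ngb and Cygb. They summed to 0.751 to 10.5 CPM in a library. In MEP cells under ruxolitinib 4 of the 6 tested were called lower, where 42% of all genes were called in either direction, and 0 of those tested were called in the other 5 treatment comparisons (edgeR).

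The genes that control and supply globin production were taken from lists, and up to 4 of each list are named by their mean level. Other members are named after their values were seen. The median change of 20 regulators of globin transcription in MEP cells at day 3 was 0.23, against 0 over all genes. Of the 20, 3 rose and 0 fell in these cells, where 1.21% of all genes were called. The regulators with the highest levels there are Gata1, Klf1, Ikzf1 and Nfe2. Klf1, the activator of the adult beta gene, was at 31.3, 128 and 57.8 CPM under vehicle and at 160, 777, 383 and 649 CPM at day 3. All day 3 libraries were above all vehicle libraries of batch A, the opposite side from Hbb-b1 and Hbb-b2. The batch C vehicle libraries of the same mice, given below, were all above those of batch A and spanned the day 3 range. Against vehicle of batch A, Klf1 rose by 2.77 (SE 0.54, edgeR adjusted p = 0.00772), and by 3.50 without mouse 32 (adjusted p = 0.00613). Myb, a progenitor factor that falls as red cells mature, rose by 1.30 (adjusted p = 0.00287), and Cbfa2t3, a corepressor that works with TAL1, by 1.26 (adjusted p = 0.0229 in edgeR), a call lost without mouse 32. Gata1, the main erythroid GATA factor, changed by -0.02, Nfe2 by 0.02 and Ikzf1 by 0, and none of these was called. Bcl11a, which silences embryonic globin genes, had a value of 0.49 (adjusted p = 0.743).

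At day 7 Klf1 was at 22.3, 17.6 and 22.9 CPM, below all vehicle libraries. It fell by 1.76 (SE 0.54, edgeR adjusted p = 0.0428), and the value was -1.06 (adjusted p = 0.391) without mouse 32. Of the 20 regulators 2 fell and 2 rose (median -0.28 against 0.21), where 8.42% of all genes were called and 7.03% were called lower. Mafk, the small partner of NF-E2, fell from 88, 133 and 95.6 CPM to 11.9, 6.59 and 17.3 CPM (-3.10, SE 0.31, edgeR adjusted p = 1.17e-07), while Myb and Gata2, the early GATA factor, rose by 1.57 and 1.32. Gata1 was not called (-0.35, adjusted p = 0.551).

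Under ruxolitinib 4 regulators rose and 2 fell in MEP cells (median 0.03 against -1.07 over all genes). Of all genes, 42% were called there and 38.5% were called lower. Klf1 was at 147, 677 and 1118 CPM under vehicle and at 2168, 2023 and 1167 CPM under ruxolitinib. It rose by 1.36 (SE 0.53, edgeR adjusted p = 0.0433), and the value was 1.53 with an adjusted p of 0.0665 without mouse 32. Gata2 rose by 2.06, Cbfa2t3 by 0.95 and Myb by 0.73, and Sox6, which represses embryonic globin genes, fell by 0.92. Without mouse 32 the count was 2 higher and 1 lower. In LSK cells 0 of 20 regulators were called in any of the 3 comparisons (edgeR).

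Of 17 genes for heme synthesis, iron uptake and chain balance, 1 fell and 0 rose in MEP cells at day 3 (median -0.01). Of all genes, 0.324% were called lower there. The gene of the list that fell was Tfrc, the transferrin receptor through which precursors take up iron. It was at 3538, 2771 and 2198 CPM under vehicle and at 816, 463, 493 and 375 CPM at day 3, without overlap. It fell by 2.42 (SE 0.27, edgeR adjusted p = 7.21e-06). Of the others with the highest levels, Alad, a heme pathway gene, had a value of -0.10 and Blvrb, biliverdin reductase B, one of -0.01, and neither was called.

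At day 7, 8 of the 17 fell and 0 rose (median -1.01 against 0.21), where 7.03% of all genes were called lower. Without mouse 32, 7 of the 17 were called lower, where 4.99% of all genes were. Tfrc was at 314, 243 and 337 CPM (-3.21, SE 0.31, edgeR adjusted p = 5.65e-08). Eif2ak1, the heme-regulated kinase that holds back globin translation when heme is short, fell from 63, 180 and 103 CPM to 13.4, 16 and 15.1 CPM (-2.94, SE 0.31, edgeR adjusted p = 2.88e-07). Alas2 fell by 2.48 (edgeR adjusted p = 0.00938), with -1.20 and an adjusted p of 0.263 without mouse 32. Under ruxolitinib 4 of the 17 fell and 0 rose (median 0.05 against -1.07 over all genes), where 38.5% of all genes were called lower. Of the 4, Tfrc alone was called without mouse 32 (-1.79, edgeR adjusted p = 0.000637). In LSK cells Tfrc was the only gene of this list called, at day 7 (-1.89, edgeR adjusted p = 0.0327), a call lost without mouse 14. Of all genes, 0.104% were called at LSK day 7. Without mouse 14, Hmox1, heme oxygenase, was called higher at day 3 (5.51), in the libraries with high macrophage sums.

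Late red cell genes make the membrane, skeleton and enzymes of the mature cell. Of 23 such genes 1 fell in MEP cells at day 3, Slc4a1, with 2.97, 5.09, 3.54 and 3.24 CPM against 6.76, 237 and 8.89 CPM under vehicle (-4.51, SE 1.03, edgeR adjusted p = 0.0248), and without mouse 32 the value was -1.06 (adjusted p = 1) and 0 of 23 were called. Of all genes, 0.324% were called lower at day 3 with all libraries. The summed list was 11491 to 19645 CPM at day 3 against 11132 to 17531 CPM under vehicle. The members with the highest levels, Car2, Prdx2, Ermap and Rhd, had values of -0.08, -0.40, 0.23 and 0.22. At day 7, 5 of 23 were called lower (median -0.63 against 0.21 over all genes), where 7.03% of all genes were, with 3 without mouse 32. The summed list was 7289 to 11002 CPM, below all vehicle libraries. Under ruxolitinib 3 were lower and 1 higher (median -0.32 against -1.07), where 38.5% of all genes were called lower. Without mouse 32 these counts were 2 and 0. The summed list was 17812 to 25429 CPM against 21063 to 23529 CPM. The part of the number of red cell precursors in the day 7 globin values was not tested.

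Early erythroid progenitor genes, 10 in the list, had 0 calls in MEP cells at day 3, where Car1, carbonic anhydrase of the early erythroid cell, had a value of 0.79 (edgeR adjusted p = 0.227). At day 7, 2 rose and 3 fell: Cd36 and Mfsd2b rose by 1.68 and 0.88, and Epor, the erythropoietin receptor, Rhag and Cldn13 fell by 1.92, 1.84 and 1.75. Of all genes, 8.42% were called at day 7 and 7.03% were called lower. Under ruxolitinib, where 42% of all genes were called, Car1 rose by 0.78 (edgeR adjusted p = 0.0277), which was lost without mouse 32. Megakaryocyte and platelet genes summed to 327 to 516 CPM at day 7 against 86.6 to 146 CPM under vehicle, and to 390 to 565 CPM under ruxolitinib against 81.5 to 158 CPM. Granulocyte markers summed to 52.2 to 82.6 CPM at day 7 against 17.2 to 19.7 CPM, and to 56.7 to 228 CPM under ruxolitinib against 7.32 to 18.7 CPM. B cell markers, 10 genes, summed to 57.9 to 77.7 CPM at day 7 against 17.4 to 19.8 CPM, and to 11.5 to 25.5 CPM under ruxolitinib against 6.2 to 14.1 CPM. At day 3 these 3 sums were 109 to 115 CPM, 15.7 to 29.4 CPM and 17.1 to 30.5 CPM. Macrophage markers in MEP cells summed to 223 to 314 CPM at day 3, 210 to 242 CPM at day 7 and 220 to 247 CPM under vehicle of batch A. Most of that sum was Slc40a1, with a mean of 220 CPM over MEP libraries, followed by Cd163 at 15.1 CPM and Axl at 7.28 CPM. The part of any of these cell types in the MEP globin values was not tested. In LSK cells the B cell sum was 468 to 9247 CPM under vehicle in batch A, 94.6 to 263 CPM at day 3 and 224 to 484 CPM at day 7, and its part was not tested either.

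**Figure D5:**
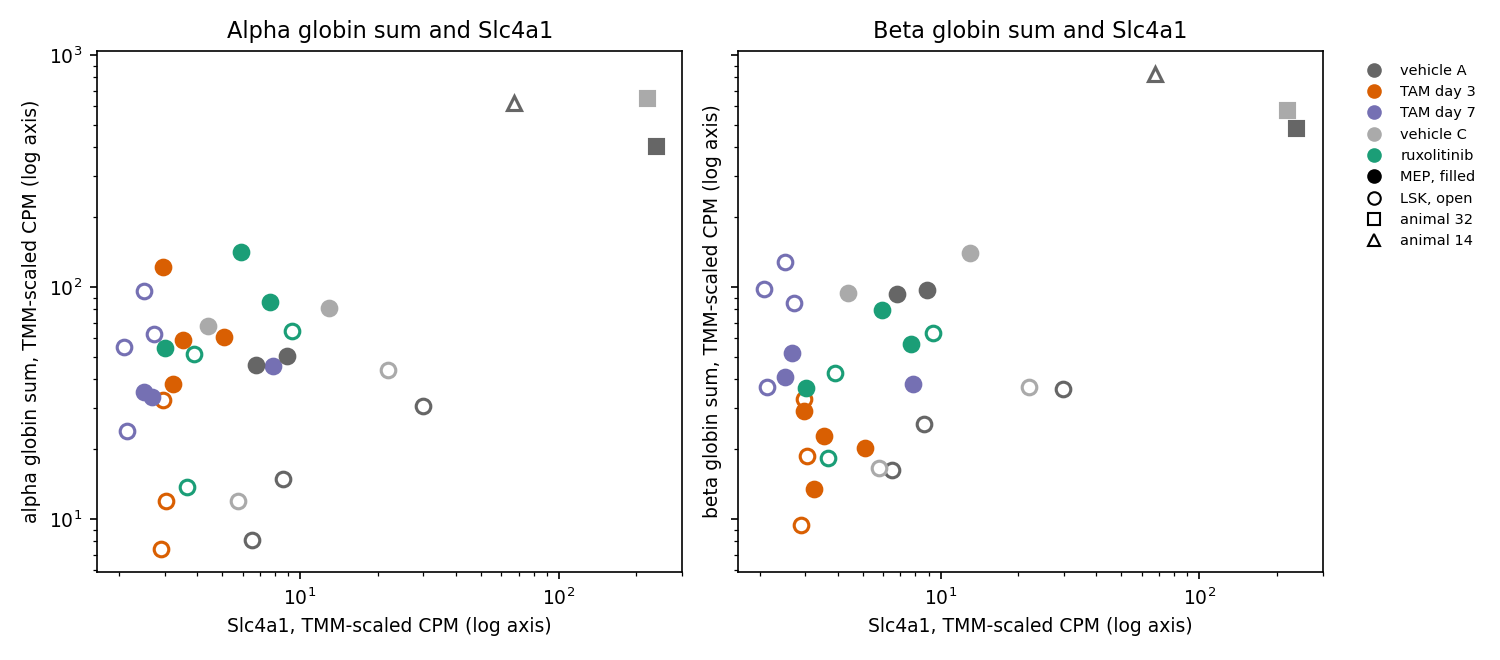
Beta and alpha globin sums against Slc4a1 (band 3), in CPM on log axes, with a point per library. The MEP libraries of mouse 32 and the LSK library of mouse 14 are high on both axes, and the MEP TAM day 3 libraries have low beta sums at Slc4a1 levels of 2.97 to 5.09 CPM.

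Genes whose level was most like the alpha sum were ranked by Pearson's r of log2(CPM + 1) over the 16 libraries of a cell type, among genes with a mean of at least 10 CPM. The points share mice, batches and scaling, so r is given as a description. In LSK cells the beta sum had r of 0.975 with the alpha sum, and 0.949 over the 15 libraries without mouse 14. The genes most like it among 9239 had lower values, from Ppt1 (0.776), Cst3 (0.766) and Naip2 (0.727) to Slc24a6, Slc31a2, Cd52, Ccdc50 and Rassf4 (0.68 to 0.705). In LSK libraries no other gene thus came near the tie between the globin chains.

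In MEP cells the tie was looser. The beta sum had r of 0.767 with the alpha sum over 16 libraries and 0.247 over the 14 libraries without mouse 32. Closer to the alpha sum among 8362 genes were Acp5 (0.928, and 0.827 without mouse 32), Scpep1 (0.918 and 0.752), Alas2 (0.908 and 0.724) and Uros (0.882 and 0.862), of which Alas2 and Uros are enzymes of heme synthesis. They were followed by Slc4a1 (0.872), which dropped to 0.293 without mouse 32, Rab3il1 (0.86 and 0.833), Epb4.9 (0.859 and 0.566) and Lrrc29 (0.846 and 0.926). Alpha and beta globin RNA thus varied together over LSK libraries and far less over MEP libraries once mouse 32 was left out.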

How the data were processed

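RNA was measured in 16 LSK and 16 MEP libraries. Per the labels, a Direct-Zol kit (Zymo) gave the RNA and a Takara HT-Seq kit the paired-end libraries. The deposited table gives whole-number counts for each gene symbol, which the authors made with STAR and featureCounts on mm10, per the submitters' processing notes. Not given in the sources used here are their versions, the annotation, the strand setting and the handling of multi-mapping reads, so counts of near-identical globin copies, and of overlapping genes, can hold each other's reads. The table holds 33924 genes, 933 without a count.

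Groups were read from titles and characteristics. Comparisons used edgeR 4.0.16 (R 4.3.3; quasi-likelihood test, two-sided) on genes kept by filterByExpr (minimum count 10), with TMM factors. P-values were adjusted by Benjamini-Hochberg over all genes tested (26930 in LSK, 25274 in MEP, 28378 jointly); called means an adjusted p under 0.05. Fits held the 16 libraries of a cell type, or all 32 between cell types. Sums replaced their genes in a second fit. Fold changes are log2 values. Ratios within libraries were compared by exact two-sided permutation tests (SciPy 1.17.1). CPM use the factors of the fit of 32 libraries. Depth, from 11160696 to 55473241 counts, sets the precision of the low genes. The scripts were tested on simulated counts.

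Alternatives were RLE factors, total counts alone, DESeq2 1.42.0, limma 3.58.1 (voom, with the mouse as a random block), no filter, only the groups compared, a replicate block, larger sums for the ratios and leaving out each replicate; edgeR's robust estimate and the lists without the vehicle library that stands apart were chosen after seeing the data. The globin genes were given by name. Their lists (regulators, heme and chain supply, late red cell, early erythroid, macrophage, granulocyte, megakaryocyte, B cell, other globin-type genes) and the tests were chosen with earlier results of these data known. Up to 4 genes per list with the largest mean CPM are named, then 8 genes most like the alpha sum. The values of 1 gene that this rule names are not reported here.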

Additional observations from a re-analysis of the deposited data

Results flagged for a closer look

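In the groups of 4 libraries, a library is listed here when its gap to the nearest other library, divided by the range of the group, is above the 95% critical value of Dixon's test, which chance passes in about 1 of 20 groups. Of 30 such tests 8 passed. In the LSK vehicle group of batch A, the library of mouse 14 was far above the others in 7 of them: Hba-a1 at 483 CPM, Hba-a2 at 137 CPM, Hbb-b1 at 689 CPM, Hbb-b2 at 135 CPM, the alpha sum at 620 CPM, the beta sum at 824 CPM and the Hba-a2 share of alpha counts at 22.1%. These measures share counts and are not independent. In the MEP TAM day 3 group, the second library was far below the others in Hbb-y, at 0.538 CPM.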

How the results depend on the processing

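In MEP cells at TAM day 3 the beta sum kept its direction under every alternative run and lost its call with the robust estimate (-3.41), and Hbb-b2 kept both. The results that moved without 1 replicate did so through mouse 14 in LSK cells and mouse 32 in MEP cells, except as named in the report and below. Without replicates in turn, LSK values ranged at day 3 from -4.60 to 2.23 for Hba-a2, -4.40 to 0.042 for Hbb-b1 and -0.72 to 0.26 for Hbb-y; at day 7 from -1.83 to 1.51 for Hba-a1, -2.41 to 4.42 for Hba-a2, -1.87 to 2.27 for Hbb-b1, -1.57 to 0.67 for Hbb-b2, -0.72 to 0.30 for Hbb-y, -1.93 to 1.71 for the alpha sum and -1.80 to 1.70 for the beta sum; and under ruxolitinib from -0.0017 to 1.75 for Hba-a1 and -1.64 to 0.16 for Hbb-y. MEP values ranged at day 3 from -1.76 to 0.52 for Hba-a1, -1.37 to 0.48 for Hba-a2 and -1.74 to 0.52 for the alpha sum. At day 7 they were -1.09 to 0.77 for Hba-a2, -0.10 to 0.74 for Hbb-y, -2.56 to -0.29 for the alpha sum and -2.73 to -1.09 for the beta sum. Under ruxolitinib they were -2.19 to 0.22 for Hba-a1, -1.47 to 0.82 for Hba-a2, -2.15 to 0.26 for the alpha sum and -2.81 to -1.08 for the beta sum.

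For alpha and beta in this order, the ranges were -1.80 to 3.22 and -1.25 to 3.11 for MEP against LSK in batch A, -3.42 to 0.95 and -2.77 to 0.95 for the day 7 minus ruxolitinib effect in LSK cells, and -2.37 to 1.4 and -1.27 to 1.32 for it in MEP cells. They were -1.21 to 3.82 and -3.03 to 1.33 for the day 3 effect in MEP minus LSK and -3.86 to 1.16 and -4.11 to 0.25 for the day 7 one. The beta sum of MEP against LSK in batch C ranged from 2.12 to 4.04. Log2 ratios of alpha to beta ranged from -0.10 to 0.15 in LSK cells at day 7 and -0.28 to 0.42 under ruxolitinib, of Hba-a2 to Hba-a1 from -0.11 to 0.54 in MEP cells at day 3, and of Hbb-b2 to Hbb-b1 from -0.999 to 0.044 in LSK cells at day 3 and -0.38 to 0.11 under ruxolitinib.

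The robust estimate, added after seeing the data, also ended the calls on the beta sum at MEP day 7 (-2.34) and in MEP against LSK of batch C (3.34), and on the alpha sum in MEP cells under ruxolitinib (-1.80). RLE factors (-1.60) and a fit of the compared groups alone (-1.72) ended the latter too. That fit made calls on the alpha sum at MEP day 7 (-2.06) and on alpha and beta in MEP day 7 against day 3 (-0.82 and 1.07). Total counts alone ended the beta calls at MEP day 7 (-1.80) and in MEP against LSK of batch C (3.04), and turned the alpha value of the MEP day 7 minus ruxolitinib effect to 0.49. Without a filter the alpha sum at MEP day 7 was called (-2.11), and MEP against LSK in batch A turned to 0.031 and 0.035. DESeq2 called the alpha sum of MEP against LSK in batch C (3.20), and gave no adjusted p for the alpha sum in MEP treatment comparisons. With voom and the mouse as a random block, MEP against LSK in batch A turned to 1.35 and 1.48 for alpha and beta, and the day 3 beta effect in MEP minus LSK to -1.27.

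Title numbers did not pair the libraries (correlations of deviations from -0.52 to 0.32). With the replicate block, values at LSK day 7 turned to 0.90 for Hba-a1, 3.43 for Hba-a2, 1.64 for Hbb-b1, 0.12 for Hbb-b2, 0.26 for Hbb-y, 1.11 for the alpha sum and 1.09 for the beta sum, and Hbb-y at LSK day 3 turned to 1.16 and Hba-a2 at MEP day 7 to 0.039. The block made calls on alpha and beta at LSK day 3 (-1.91 and -2.001), in LSK day 7 against day 3 (1.75 and 2.04), in MEP day 7 against day 3 (-0.94 and 0.93) and on alpha at MEP day 7 (-1.20), and ended the alpha call in MEP cells under ruxolitinib (-0.92). The causes were not tested. Over all genes, calls at LSK day 3 went from 0 to 93 in DESeq2, 220 with the block and up to 88 without 1 library, at LSK day 7 from 28 to 334, 1 and 2 to 911, and at LSK ruxolitinib from 6 to 132, 46 and 2 to 4. At MEP day 3 they went from 306 to 682 in DESeq2, 633 with the compared groups alone and 98 to 383 without 1 library (98 without mouse 33, 110 without mouse 12, and 111, 132 and 177 without the second, the third and the fourth day 3 library), at MEP day 7 from 2128 to 1313 without 1 library, and under MEP ruxolitinib from 10605 to 3090 with the compared groups alone, 4092 with the block and 7068 without mouse 32. Total counts alone moved the median of all genes by 0.52 at MEP day 7, 0.49 in MEP day 7 against day 3 and -0.24 under MEP ruxolitinib, and the share of calls that were higher in MEP day 7 against day 3 from 13.9% to 49.2%. Depth limits Hbb-y, Hbb-bh1 and, in LSK cells, Hba-a2.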
